A study of Mus musculus with 23 samples.

Results

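This section describes 37 genes of glycolysis and glycogen metabolism among the 38924 genes counted in mouse quadriceps. The genes were listed by symbol, from the hexokinases to the proteins that target enzymes to glycogen, and each matched 1 counted gene. Polyadenylated RNA of 23 C57BL/6 mice was sequenced, 1 library per animal. The mice ate standard chow, and some had glucose or exercise tolerance tests. Wild-type mice (WT) were taken at 4, 7 and 24 months (WT_4m, WT_7m and WT_24m, 4 libraries each). Mice lacking Nampt in skeletal muscle, the enzyme that recycles nicotinamide into NAD, were taken at 7 months (mNKO, 4 libraries). The agent that deleted Nampt is not given in the sources used here, and other cells of the muscle keep the gene. Mice labelled MCK-NamptOE, named for the muscle creatine kinase promoter, overexpressed Nampt in skeletal muscle. They form the groups OE_4m, with 3 libraries from animals aged 4 months, and OE_24m, with 4 from animals aged 24 months. The labels give no sex.

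Glycolysis splits glucose into pyruvate and yields ATP without oxygen, and glycogen is the store of glucose from which a contracting muscle feeds it. Fast muscle fibres make these enzymes in very large amounts, and for many steps they use an isoform of their own, such as Eno3 for enolase, Pgam2 for phosphoglycerate mutase and Pfkm for phosphofructokinase. Most other cells, and immature muscle cells, use a second gene for the same step, such as Eno1, Pgam1, Pfkl or Hk1. Glycogen breakdown is switched on by phosphorylase kinase, whose alpha, beta and gamma subunits activate the phosphorylase Pygm. NAD, the product of the pathway that Nampt feeds, is the electron acceptor of the Gapdh step and is restored by lactate dehydrogenase and the glycerol phosphate shuttle.

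Libraries held 14900674 to 22755930 counts on genes at 7 months and 2032544 to 3443762 at 4 and 24 months, so genes with few reads are known less well in the older and younger mice. Levels below are in CPM, the count of a gene relative to its library's total after edgeR's TMM scaling, and libraries of a group are listed in the order of their replicate numbers. RNA of the 7-month mice was extracted with another kit, so levels at 7 months are not set against those at other ages. Nampt itself was at 101.9 to 127.4 CPM in WT_7m and 12.5 to 23.3 in mNKO, and at 189.4 to 253.2 CPM in WT_4m and WT_24m against 4107 to 9533 in the MCK-NamptOE mice, as labelled. Scaling mattered at 7 months. With TMM the median log2 fold change of all 13140 genes tested in mNKO over WT was 0.01, and with total counts it was 0.54. The summed level of fast fibre markers was 201800 to 259400 CPM in WT_7m against 70.5 to 84.3 for slow fibre markers. This shows fast skeletal muscle but does not tell quadriceps from other fast muscles.

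In WT quadriceps at 7 months the muscle-type genes stood far above their counterparts. Per kilobase of exon, Aldoa, the main aldolase of muscle, was the highest at 5853 ± 568 CPM per kb (SD, n = 4). Pygm (3785 ± 792), Gapdh (3783 ± 407) and Pgam2 (3090 ± 494) followed and lay within their spread of each other, and Eno3 (2634 ± 454) overlapped with Pgam2. The next were Pfkm at 1104 ± 186 CPM per kb, Tpi1 at 936 ± 151, Pkm at 816 ± 82 and Ldha at 785 ± 116, and these last 3 lay within their spread of each other. At the other end were Hk1 at 0.927 ± 0.159 CPM per kb, Phka2 at 0.812 ± 0.229, Pfkp at 0.445 ± 0.0991 and Aldoc at 0.150 ± 0.0559. The other 24 genes lay between, from Pgm2 at 550.5 down to Pfkl at 1.18 CPM per kb. The length used is that of all annotated exons of a gene joined, such as 4133 bases for Gapdh and 840 for Pgam2. It can exceed that of the transcript made in muscle, so this order is approximate. Without division by length, Aldoa was at 17040 ± 1650 CPM and Gapdh at 15640 ± 1680. All 37 genes together took 6.28 ± 0.27% of the counts on genes in WT_7m and 6.16 ± 0.49% in mNKO, values whose ranges overlapped (6.04 to 6.63% and 5.58 to 6.61%). Mitochondrial genes took 17.17 ± 2.57% of these counts in WT_7m and 10.26 ± 2.53% in mNKO, and without them the 37 genes took 7.59 ± 0.41% and 6.85 ± 0.37%.

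The first comparison asks how the pathway differs in muscle without Nampt. Of the 37 genes, 8 rose and 16 fell in mNKO at an adjusted p below 0.05. The share that rose (21.6%) was below that of all genes tested (28.6%), and the share that fell (43.2%) was above it (24.5%). In 8 of the genes every mNKO library was above every WT library, and in 14 every mNKO library was below, where 27.0% and 23.1% of all genes did so. At an unadjusted p below 0.05 there were 26 genes, against 58.7% of all genes. The 8 that rose were Hk1, Pfkl, Pfkp, Pgam1, Eno1, Phka2, Phkg2 and Stbd1, and the first 7 of them are the isoforms that mature muscle uses least. Their median with Aldoc and Ldhb, which did not pass, was 0.83 on the log2 scale, and all 9 of these isoforms were positive. Of all 13140 genes 6665 were positive, with a median of 0.01. The 8 muscle-type isoforms were all negative with a median of -0.53, and 5 of them fell (Pfkm, Aldoa, Eno3, Phka1 and Phkg1). Among these, Aldoa and Ldha are paired with Aldoc, a brain form, and Ldhb, the form of heart and slow fibres. Those pairs do not set a muscle isoform against a general one. With total counts 13 of the 37 genes rose (35.1%, against 51.6% of all genes) and 9 fell (24.3%, against 7.05%). The 5 that rose under this scaling and not with TMM were Gpi1, Aldoc, Tpi1, Pgk1 and Gbe1. The number of the 37 genes with a negative value went from 26 to 14, and that of all 13140 genes from 6475 to 2769. With total counts the 9 other isoforms were positive with a median of 1.34. The muscle-type isoforms divided into 4 positive and 4 negative with a median of 0.00, below the median of all genes (0.54), of which 10371 were positive.

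**Figure D1:**
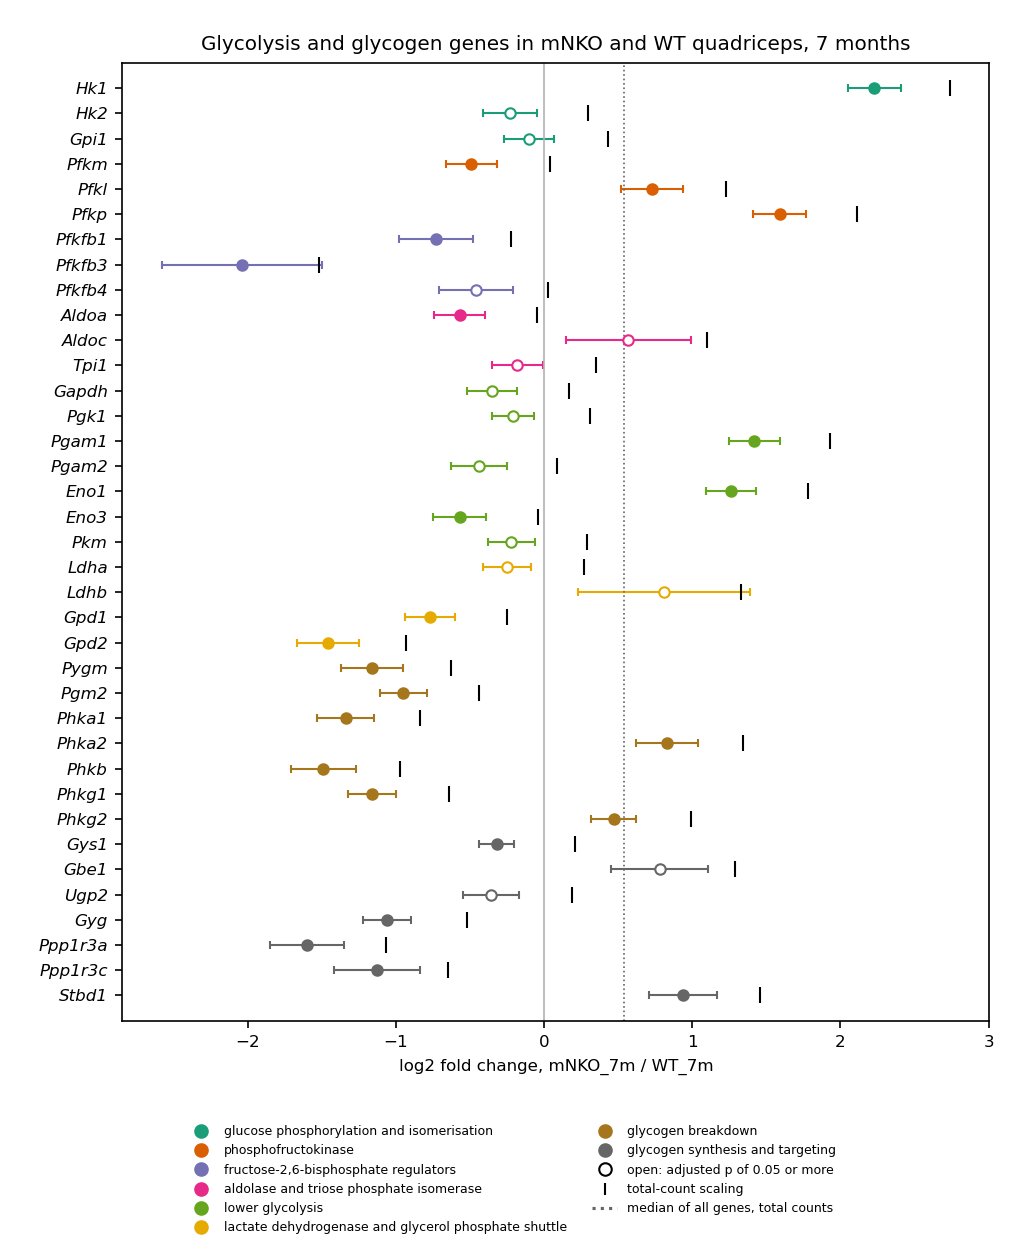
Log2 fold change of each of the 37 genes in mNKO over WT at 7 months (points, with bars of 1 SE, 4 libraries per group), coloured by role, with filled points for an adjusted p below 0.05. Short vertical marks give the value with total-count scaling and the dotted line the median of all genes under that scaling (0.54), and Hk1, Pfkp, Pgam1 and Eno1 lie farthest to the right while Pfkfb3 and Ppp1r3a lie farthest to the left.

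Markers of other cells moved with these genes. The summed macrophage markers were 106.7 to 377 CPM in WT_7m and 1222 to 2565 in mNKO, with 13 of 13 higher, and the fibroblast markers 913 to 1207 and 3351 to 5330, with 10 of 10 higher. Markers of regenerating fibres were 84.4 to 102.6 CPM in WT_7m and 717.9 to 1328 in mNKO (8 of 9 higher), and slow fibre markers 70.5 to 84.3 and 522 to 633 (8 of 10 higher). Fast fibre markers were 201800 to 259400 CPM in WT_7m and 95590 to 154400 in mNKO (7 of 12 lower, 1 higher), and general skeletal muscle markers 110600 to 128600 and 55090 to 78620 (6 of 8 lower). Endothelial (1 of 8 higher), smooth muscle (1 higher and 1 lower of 6), adipocyte (0 of 8) and red blood cell markers (0 of 4) had few or no calls. No marker was at 0 in either group. Sums in WT_7m and mNKO overlapped, at 221 to 306.1 and 200.4 to 308.6 CPM (endothelial), 4115 to 5949 and 4450 to 6824 (smooth muscle), 188.7 to 845.8 and 279.5 to 1652 (adipocyte). Red blood cell markers were at 170.3 to 393.7 and 205.9 to 2017 CPM, highest in mNKO replicate 1, with a median log2 fold change of 1.31. The part of these cells in the results on glycolysis was not tested. In whole muscle, fewer cells of a type and less RNA per cell cannot be told apart.

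The largest rise was in the step that traps glucose in the cell. Hk1, the hexokinase of brain, red blood cells and most other tissues, was at 9.49, 7.72, 6.22 and 8.22 CPM in the WT libraries and at 46.1, 30.9, 31.4 and 39.6 in the mNKO libraries. Every mNKO library was far above every WT library. The log2 fold change was 2.23 (SE 0.18, adjusted p = 9.23e-06), a 4.68-fold rise. Hk2, the insulin-responsive hexokinase of muscle, was at 239.6, 279.7, 257 and 226 CPM in WT and 155, 252, 266 and 182 in mNKO. These ranges overlapped, and Hk2 did not pass the test (-0.23, SE 0.18, adjusted p = 0.305; with total counts 0.30, adjusted p = 0.153). Per length of joined exons (8532 bases for Hk1 and 5969 for Hk2), Hk1 made up 2.19 ± 0.487% of the 2 hexokinases in WT and 11.5 ± 4.61% in mNKO. Gpi1, the isomerase of the next step, ranged over 1322 to 1792 CPM in WT and 1126 to 1630 in mNKO (-0.10, SE 0.17, adjusted p = 0.641), while with total counts it was called higher (0.43, adjusted p = 0.0139).

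Since Hk1 rose and its muscle counterpart Hk2 did not pass the test, the 250 bases before an annotated start of each are shown, for Hk1 the upstream one of its 2 starts, both read 5′ to 3′ on the minus strand of build GRCm38.p6 from RefSeq's gene starts. Capitals mark the letters CANNTG, the core of sites for MyoD-type factors, and ACGTG or its reverse complement CACGT, the core of sites for hypoxia-inducible factors. The Hk1 window is chr10:62379909-62380158 and the Hk2 window is chr6:82774455-82774704, each directly upstream of the gene (Hk1 at chr10:62268855-62379908, Hk2 at chr6:82725025-82774454).

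Hk1: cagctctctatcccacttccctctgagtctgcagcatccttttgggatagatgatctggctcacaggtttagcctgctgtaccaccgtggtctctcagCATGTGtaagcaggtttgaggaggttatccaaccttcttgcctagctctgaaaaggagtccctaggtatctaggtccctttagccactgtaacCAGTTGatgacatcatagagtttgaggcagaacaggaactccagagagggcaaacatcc
Hk2: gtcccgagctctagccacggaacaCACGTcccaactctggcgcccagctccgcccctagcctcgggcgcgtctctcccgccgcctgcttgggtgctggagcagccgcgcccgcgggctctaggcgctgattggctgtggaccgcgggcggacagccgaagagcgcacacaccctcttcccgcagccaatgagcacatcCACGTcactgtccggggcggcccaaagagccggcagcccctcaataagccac

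The Hk1 window holds 2 matches to CANNTG and none to ACGTG, and the Hk2 window holds 2 to ACGTG and none to CANNTG. Windows of the same length were found for 36 of the 37 genes. CANNTG was in 27 of them (75.0%), where 69.3% of 27025 genes with a window hold it, and in 7 of the 8 muscle-type isoforms and 4 of the 9 other isoforms. On both strands, ACGTG was in 13 of 36 (36.1%; 18.5% of all genes), in 4 of the 8 muscle-type and 1 of the 9 other isoforms. The MEF2 motif was in 3 of 36 (8.33%; 3.42% of all genes), namely Pfkfb1, Pgam2 and Ppp1r3a. Such matches describe the letters alone, and a gene with several starts counts if any window holds one. Which start of Hk1 is used in this muscle was not examined, so the printed window may not be the one behind its reads.

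Phosphofructokinase commits sugar to glycolysis, and its 3 genes changed in both directions. Pfkm, the muscle form, was at 3614, 3858, 4384 and 2890 CPM in WT and 2337, 3063, 2549 and 2570 in mNKO, with one WT library inside the mNKO range. It fell (-0.49, SE 0.17, adjusted p = 0.0295), but lost the call without any one of 5 of the 8 libraries (WT replicates 2 and 3, mNKO replicates 1, 3 and 4), and with total counts its value was 0.04. Pfkl, the liver form, was at 10.1, 5.61, 5.65 and 10.1 CPM in WT and 13.4, 12.1, 13.9 and 12.7 in mNKO. All mNKO libraries were above all WT libraries, 2 of which were near 10 CPM and 2 near 5.6, and Pfkl rose by 0.73 (SE 0.21, adjusted p = 0.0120). Pfkp, the platelet form, was at 6.69, 6.25, 4.01 and 6.90 CPM in WT and 18.3, 16.8, 16.6 and 20.4 in mNKO. The groups lay far apart, and Pfkp rose by 1.59 (SE 0.18, adjusted p = 3.95e-05), 3.02-fold.

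Of the bifunctional enzymes that make and remove the sugar bisphosphate that activates phosphofructokinase, 2 of 3 fell, where 24.5% of all genes did. Pfkfb3, the family member with the strongest kinase activity, was at 666, 578, 386 and 482 CPM in WT and 67.4, 195, 215 and 37.4 in mNKO. All mNKO libraries were below all WT libraries but differed among themselves, with replicates 1 and 4 lowest. It fell by 2.04 (SE 0.54, adjusted p = 0.0119), to 24.4% of WT, the largest fall among the 37 genes. Pfkfb1, the liver and muscle member, ranged over 38.1 to 52.2 CPM in WT and 15.7 to 40.1 in mNKO and fell by 0.73 (SE 0.25, adjusted p = 0.0310), a call lost without WT replicate 1 or 3, without mNKO replicate 4, or with total counts (-0.22, adjusted p = 0.458). Pfkfb4 was 30.2 to 44.1 CPM in WT and 20.5 to 45.5 in mNKO (-0.46, SE 0.25, adjusted p = 0.137).

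Aldolase splits the phosphorylated sugar into trioses. Aldoa was at 14820, 18130, 18460 and 16750 CPM in WT and 9861, 13560, 9688 and 12790 in mNKO. Every mNKO library was below every WT library, and Aldoa fell by 0.57 (SE 0.17, adjusted p = 0.0166). Without mNKO replicate 1 the adjusted p was 0.0629, and with total counts the value was -0.05. Aldoc, the brain form, was near the limit of detection at 0.343, 0.526, 0.735 and 0.360 CPM in WT and 0.778, 0.606, 0.411 and 1.15 in mNKO, with overlapping ranges (0.57, SE 0.42, adjusted p = 0.275), and was called higher with total counts (1.10, adjusted p = 0.0347). Tpi1, which interconverts the trioses, was at 2189 to 3049 CPM in WT and 1854 to 2547 in mNKO (-0.18, SE 0.17, adjusted p = 0.403), and with total counts it was called higher (0.35, adjusted p = 0.0271).

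In lower glycolysis, the steps that yield ATP, Pgam1 and Eno1 rose, Eno3 fell, and the other 4 of 7 genes did not pass. Of all genes tested, 28.6% rose and 24.5% fell. With total counts 6 of the 7 were positive and 3 called higher (Pgam1, Eno1 and Pgk1). Under that scaling 10371 of all 13140 genes were positive and 51.6% were called higher. Pgam1, the brain and general mutase, was at 17.4, 13.5, 12.2 and 17.9 CPM in WT and 49.7, 34.8, 36.96 and 41.5 in mNKO. The mNKO libraries were all above the WT libraries, and Pgam1 rose by 1.42 (SE 0.17, adjusted p = 5.43e-05), 2.67-fold. Pgam2, the muscle mutase, was at 2179, 3146, 2653 and 2404 CPM in WT and 1614, 2015, 1559 and 2441 in mNKO. Only mNKO replicate 4 reached the WT range, and the difference of -0.44 (SE 0.19) had an adjusted p of 0.0659.

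Eno1, the general enolase, was at 78.4, 104, 82.7 and 104 CPM in WT and 217, 226, 169.7 and 271 in mNKO. It rose by 1.26 (SE 0.17, adjusted p = 0.000113), 2.39-fold, with no overlap between the groups. Eno3, the muscle enolase, was at 3850, 5359, 5159 and 3953 CPM in WT and 3036, 3406, 2500 and 3397 in mNKO. All mNKO libraries lay below all WT libraries, and Eno3 fell by 0.57 (SE 0.18, adjusted p = 0.0173), while with total counts its value was -0.04. Gapdh (-0.35, SE 0.17, adjusted p = 0.0969), Pgk1 (-0.21, SE 0.14, adjusted p = 0.209) and Pkm (-0.22, SE 0.16, adjusted p = 0.271), the enzymes with no muscle-type gene in the list, had overlapping libraries. With total counts these 3 were positive, and Pgk1 passed (0.31, adjusted p = 0.0360). Reads with several alignments stayed outside the gene counts, so the levels of genes with near-identical processed copies (Gapdh, Aldoa, Tpi1, Eno1, Pgam1, Ldha and Pgk1) are uncertain. Whether the counting used strand is not given in the sources used here, so reads of overlapping antisense genes cannot be told apart.

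Lactate dehydrogenase and the glycerol phosphate shuttle each turn NADH of the cytosol back into NAD. Ldha, the lactate dehydrogenase of fast muscle, was at 2224, 2839, 3008 and 2325 CPM in WT and 2179, 2499, 1790 and 2251 in mNKO (-0.25, SE 0.16, adjusted p = 0.218). Ldhb, the form of heart and slow fibres, was at 65.1, 26.8, 12.5 and 16.7 CPM in WT and 43.5, 29.9, 92.9 and 46.0 in mNKO. WT replicate 1 was above 3 of the 4 mNKO libraries, and the difference of 0.81 (SE 0.58) did not pass (adjusted p = 0.277). With TMM both genes of the glycerol phosphate shuttle fell. Gpd1, its cytosolic enzyme, was at 997, 789, 1013 and 715 CPM in WT and 584, 575, 453 and 444 in mNKO, without overlap. It fell by 0.77 (SE 0.17, adjusted p = 0.00251), and with total counts its -0.25 did not pass (adjusted p = 0.181). Gpd2, the mitochondrial enzyme, was at 214, 198, 231 and 145 CPM in WT and 77.7, 91.6, 70.6 and 47.6 in mNKO. All mNKO libraries were below all WT libraries, and Gpd2 fell by 1.46 (SE 0.21, adjusted p = 0.000182), to 36.5% of WT. Gpd2 kept the call with total counts (-0.93, adjusted p = 0.00131).

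In glycogen breakdown 5 of 7 genes fell and the other 2, both subunits of the kinase used outside muscle, rose, where 24.5% of all genes fell and 28.6% rose. With total counts 5 again fell and 2 rose, where 7.05% and 51.6% of all genes did. The median log2 fold change of the role was -1.16, and -0.63 with total counts. Pygm (chr19:6384399-6398459), the muscle phosphorylase that releases glucose from glycogen, was at 10390, 14480, 14260 and 9595 CPM in WT and 4814, 6817, 4200 and 6036 in mNKO. No mNKO library reached the lowest WT library, and Pygm fell by 1.16 (SE 0.21, adjusted p = 0.000881), to 44.9% of WT. Pgm2 (chr4:99929414-99987294), the symbol under which the files list the phosphoglucomutase that hands the released sugar to glycolysis, was at 1481, 1599, 1737 and 1615 CPM in WT and 886, 1025, 646 and 768 in mNKO. It fell by 0.95 (SE 0.16, adjusted p = 0.000593), again without overlap.

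Subunits of phosphorylase kinase, the enzyme that activates Pygm, fell or rose by isoform. Phka1, the alpha subunit of muscle, was at 994, 736, 1047 and 900.0 CPM in WT and 356, 486, 339 and 271 in mNKO. It fell by 1.34 (SE 0.19, adjusted p = 0.000196), with all mNKO libraries below the WT libraries. Phka2, the alpha subunit of liver, was at 6.57, 4.68, 3.22 and 5.22 CPM in WT and 8.10, 7.51, 9.20 and 10.2 in mNKO, and rose by 0.83 (SE 0.21, adjusted p = 0.00645) without overlap.

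Phkb, the beta subunit that all tissues share, was at 513, 445, 581 and 388 CPM in WT and 179, 228, 169 and 110.1 in mNKO. It fell by 1.49 (SE 0.22, adjusted p = 0.000200), to 35.6% of WT, with mNKO replicate 4 the lowest. Phkg1, the catalytic gamma subunit of muscle, was at 531, 577, 586 and 445 CPM in WT and 205, 305, 218 and 229 in mNKO, and fell by 1.16 (SE 0.16, adjusted p = 0.000164). The groups did not overlap. Phkg2, the catalytic subunit of liver and testis, was at 8.57, 9.18, 7.80 and 8.82 CPM in WT and 10.3, 11.3, 10.7 and 15.2 in mNKO. Its rise of 0.47 (SE 0.15, adjusted p = 0.0233) was the smallest of the 8, and the call was lost without WT replicate 3 (adjusted p = 0.0712) or mNKO replicate 4 (adjusted p = 0.0618).

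Glycogen synthesis and targeting had 4 genes that fell and 1 that rose among 7, with a median of -0.36. Of all genes 24.5% fell and 28.6% rose, with a median of 0.01. With total counts 2 fell and 2 rose, and the median was 0.19, below the median of all genes under that scaling (0.54). There 7.05% of all genes fell and 51.6% rose. Gyg, glycogenin, which primes a new glycogen particle, was at 435, 494, 512 and 399 CPM in WT and 236, 244, 240.5 and 166 in mNKO. It fell by 1.06 (SE 0.16, adjusted p = 0.000257), with mNKO replicate 4 apart from the other mNKO libraries. Gys1, the muscle glycogen synthase, was at 452, 447, 481 and 419 CPM in WT and 332, 362, 400.3 and 348 in mNKO. The groups did not overlap, and its fall of 0.32 (SE 0.12, adjusted p = 0.0473) was small, was no longer called when any one of 7 of the 8 libraries was omitted, and was 0.21 with total counts.

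Ppp1r3a, the muscle subunit that brings protein phosphatase to glycogen, was at 449.9, 393, 480.2 and 378 CPM in WT and 163, 158, 170.3 and 70.4 in mNKO. It fell by 1.60 (SE 0.25, adjusted p = 0.000335), to 33.0% of WT, with every mNKO library below every WT library. Ppp1r3c, a targeting subunit found in many tissues, was at 523, 574, 590.4 and 968 CPM in WT and 286, 468, 179.5 and 279 in mNKO. WT replicate 4 was far above the other WT libraries, and Ppp1r3c fell by 1.13 (SE 0.29, adjusted p = 0.00770), a call lost with total counts (-0.65, adjusted p = 0.0735).

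Stbd1, a protein that binds glycogen and tethers it to membranes for lysosomal breakdown, went the other way. Its level was 36.0, 53.4, 52.2 and 47.3 CPM in WT and 119, 87.0, 53.5 and 102 in mNKO. The lowest mNKO library was just above the highest WT library, and Stbd1 rose by 0.94 (SE 0.23, adjusted p = 0.00507). Gbe1, the branching enzyme, was at 23.3 to 53.9 CPM in WT and 33.1 to 85.6 in mNKO (0.78, SE 0.33, adjusted p = 0.0737), and was called higher with total counts (1.29, adjusted p = 0.0207). Ugp2, which makes the UDP-glucose that Gys1 uses, was at 588 to 970.3 CPM in WT and 504.5 to 722.8 in mNKO (-0.36, SE 0.19, adjusted p = 0.130).

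**Figure D2:**
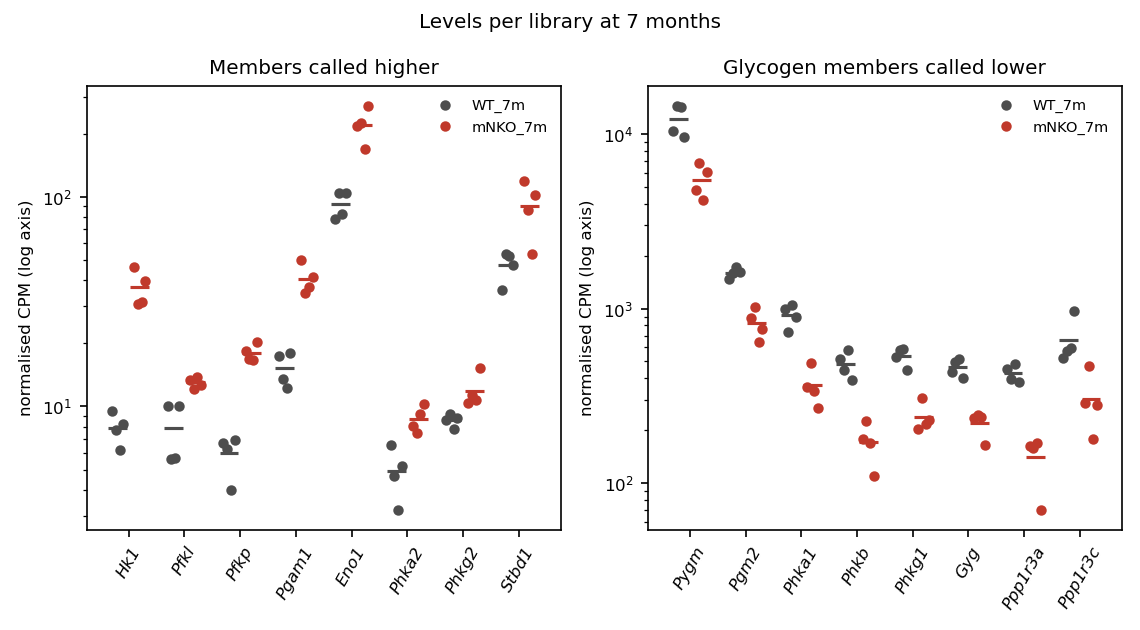
Normalised CPM (log axis) of the 8 genes that rose (left) and of 8 glycogen genes that fell (right) in each of the 4 WT and 4 mNKO libraries at 7 months, with points for libraries and bars for group means. In each of these 16 genes the 2 groups do not overlap, and Hk1 and Pfkp on the left and Ppp1r3a and Phkb on the right show wide gaps.

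The ratio of 2 isoforms within a library does not depend on how libraries are scaled. In 8 of 9 pairs the muscle-type share was lower in all 4 mNKO libraries than in all 4 WT libraries, and each of these had the smallest p that 4 against 4 libraries allow (exact two-sided permutation p = 0.0286, adjusted p = 0.107 over 45 tests). None therefore passes after adjustment, a threshold that this number of libraries could pass only if more of the 45 tests were at the smallest p. The log2 ratio of Eno3 to Eno1 was 5.63 ± 0.29 in WT_7m and 3.81 ± 0.12 in mNKO (SD, n = 4 each), a fall of 3.52-fold that is several times the spread within groups (0.22). For Hk2 over Hk1 it went from 4.99 ± 0.33 to 2.51 ± 0.65, and for Pgam2 over Pgam1 from 7.41 ± 0.46 to 5.54 ± 0.41.

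Phosphofructokinase and phosphorylase kinase had the same order. The log2 ratio of Pfkm to Pfkp was 9.28 ± 0.58 in WT_7m and 7.19 ± 0.25 in mNKO, and that of Pfkm to Pfkl 8.91 ± 0.70 and 7.65 ± 0.24. Phka1 over Phka2 was 7.57 ± 0.51 in WT_7m and 5.35 ± 0.54 in mNKO, and Phkg1 over Phkg2 5.95 ± 0.23 and 4.33 ± 0.34. Aldoa over Aldoc differed least among the 8, by -1.10, and rests on the few reads of Aldoc. Ldha over Ldhb was the exception, with overlapping libraries (6.71 ± 1.19 and 5.48 ± 0.88, exact p = 0.171, adjusted p = 0.428).

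The muscle-type isoform remained the main one at every step in mNKO. Per length, Eno1 was 0.659 ± 0.135% of the 2 enolases in WT_7m and 2.25 ± 0.185% in mNKO. Pgam1 went from 0.257% to 0.931% of the 2 mutases, Phkg2 from 2.58% to 7.61% of the gamma subunits and Phka2 from 0.560% to 2.58% of the alpha subunits. Pfkp went from 0.0422% to 0.173% of its pair with Pfkm. The highest share of an other isoform in any mNKO library was that of Hk1, at 17.3%. These shares rest on the length of joined exons, such as 5379 bases for Eno1 and 1739 for Eno3, so they are approximate. A share would be higher if the transcript of the other isoform is shorter than its joined exons.

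**Figure D3:**
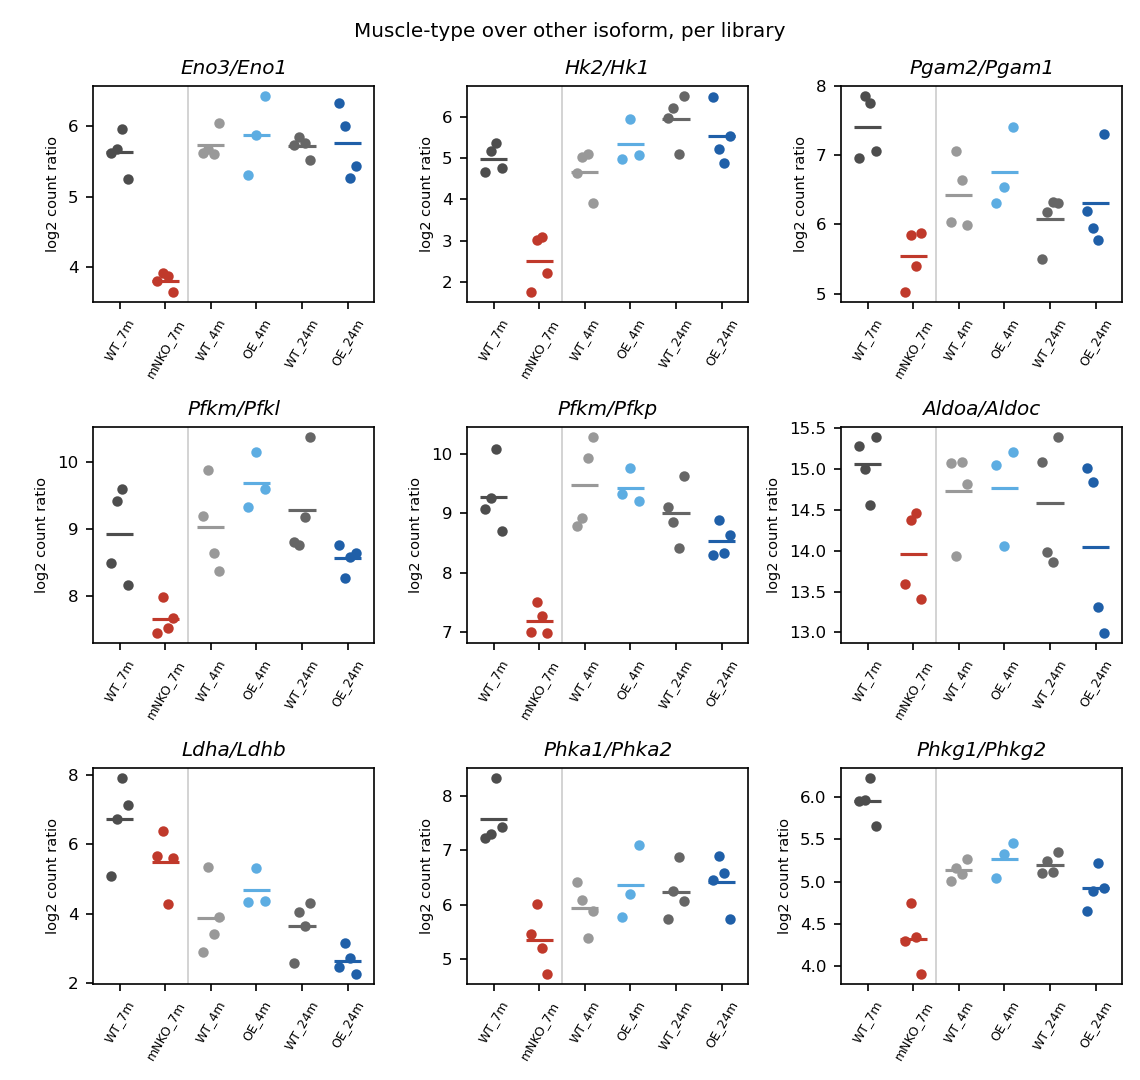
Log2 ratio of the count of the muscle-type isoform to that of the other isoform (pseudocount 0.5) in every library of the 6 groups, with 1 panel per pair, bars for group means, and a grey line between the 7-month libraries and the others, whose RNA was extracted differently. In every panel but that of Ldha and Ldhb the mNKO libraries lie below the WT_7m libraries.

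Genes around the pathway, from 6 lists, were read from the same test, in which 28.6% of all genes rose and 24.5% fell (with total counts 51.6% and 7.05%). Among 13 glucose uptake genes 2 rose and 9 fell (median -0.68; with total counts 3 and 3). Slc2a3, a glucose transporter of neurons and other cells, was at 13.5 ± 1.75 CPM in WT_7m and 2.77 ± 0.78 in mNKO (-2.30, SE 0.20, adjusted p = 1.25e-05). Tbc1d4, which holds glucose transporters inside the cell until insulin acts, fell by 1.14 (SE 0.12, adjusted p = 3.48e-05). Of 14 further isoforms of the same enzymes 5 rose and 3 fell, among them Pgm5, a phosphoglucomutase relative without that activity, at 7.97 ± 1.46 CPM in WT_7m and 33.7 ± 3.24 in mNKO (2.08, SE 0.15, adjusted p = 5.61e-06). Pgm2l1, which makes a sugar bisphosphate cofactor, fell by 1.65 (SE 0.18, adjusted p = 3.65e-05).

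Of 19 other glycogen genes 13 fell and 1 rose (median -0.64; with total counts 7 fell and 2 rose). Epm2a, which encodes the glycogen phosphatase laforin, was at 101.3 ± 10.4 CPM in WT_7m and 38.0 ± 7.43 in mNKO (-1.41, SE 0.16, adjusted p = 3.85e-05).

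Of 20 genes for the fate of pyruvate and lactate 13 fell and 2 rose (median -0.63; with total counts 5 and 4). Pdk3, a kinase that shuts pyruvate dehydrogenase, rose from 0.553 ± 0.130 to 4.47 ± 0.648 CPM (3.01, SE 0.26, adjusted p = 1.08e-05), and Gpt2, which converts pyruvate to alanine, fell by 1.69 (SE 0.20, adjusted p = 5.65e-05). In the branches of glycolysis 5 of 14 genes rose and 2 fell (median 0.31; with total counts 6 and 0), among them Gfpt2 of the hexosamine pathway (1.49, SE 0.29, adjusted p = 0.00152) and the mitochondrial Pck2 (1.29, SE 0.26, adjusted p = 0.00144). Among 22 regulators 11 fell and 4 rose (median -0.47; with total counts 7 and 8). Prkab2, the AMP kinase beta subunit of muscle, which binds glycogen, fell from 693.1 ± 60.7 to 174.4 ± 50.8 CPM (-1.99, SE 0.21, adjusted p = 2.95e-05).

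The comparisons at 4 and 24 months ask whether more Nampt, or age, alters these genes, and there 36 of the 37 were tested, since Aldoc had too few reads. With MCK-NamptOE at 4 months none rose or fell by edgeR (0.0109% and 0.0% of all genes did), and with it at 24 months none did either (0.0109% and 0.0%). At an unadjusted p below 0.05 there was 1 gene at 4 months (Pgam2, 0.55, adjusted p = 0.959) against 4.82% of all genes. There were 4 at 24 months (Pfkm, Pfkfb3, Pgm2 and Ppp1r3a, 11.1%) against 7.34%, all with negative values and adjusted p of 0.593 or more. DESeq2 called none in either. Libraries did not overlap for Ppp1r3a (higher) and Phkb (lower) at 4 months, where 2.7% and 2.59% of all genes did so, and for Pfkm, Pgm2 and Phkb (lower, none higher) at 24 months, against 2.33% lower and 2.36% higher.

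Pfkfb3, the gene with the largest fall in mNKO, was at 1060, 1200, 1159 and 1306 CPM in WT_24m and at 1136, 814, 423 and 486 in OE_24m. OE_24m replicates 3 and 4 were low, replicate 1 lay inside the WT range, and the value was -0.72 (SE 0.23, adjusted p = 0.593). Without OE_24m replicate 1 it passed.

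Age in WT gave no call among the 36 genes by edgeR or DESeq2 (0.0656% of all genes rose and 0.0875% fell), with 1 unadjusted (Pgk1, -0.32, adjusted p = 0.498) against 8.54% of all genes. WT_24m libraries were all below WT_4m libraries for Pgk1, Pkm, Pygm and Phkb and all above for Ppp1r3a, where 2.81% and 2.59% of all genes did so. Pkm was at 2695, 2391, 2625 and 2449 CPM in WT_4m and 2131, 2341, 2213 and 2251 in WT_24m. With total counts in place of TMM the median of all genes in this comparison moved from 0.00 to 0.11.

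Age in MCK-NamptOE mice gave 1 call, a fall of Pgm2, and none upward, where 0.416% of all genes fell and 0.317% rose. Pgm2 was at 483, 588 and 809 CPM in OE_4m and 362, 427, 352 and 317 in OE_24m. All OE_24m libraries were below all OE_4m libraries, and Pgm2 fell by 0.78 (SE 0.17, adjusted p = 0.0188), to 58.2%. The call was lost without OE_4m replicate 2 or 3 or without OE_24m replicate 1 or 3, with adjusted p of 0.0602 to 0.134, and when only these 2 groups were fitted, and the value without OE_4m replicate 3, the highest library, was -0.55. In WT the same gene was at 561, 589, 664 and 423 CPM in WT_4m and 449, 552, 481 and 532 in WT_24m (-0.15, SE 0.15, adjusted p = 0.882). The difference between the effects of age in MCK-NamptOE and WT mice was -0.63 (SE 0.23, adjusted p = 0.814), so a difference between genotypes was not shown.

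More genes leaned the same way without passing. In OE_24m against OE_4m 13 of the 36 genes (36.1%) had an unadjusted p below 0.05 where 11.0% of all genes did, 11 of them with negative values. All 7 genes of lower glycolysis were negative (median -0.21), as were 6 of the 7 of glycogen breakdown (median -0.33). Of all 9144 genes 4342 were negative, with a median of 0.02. WT mice leaned the same way with age, with 6 of 7 genes negative in each of these roles. The medians in WT_24m against WT_4m were -0.18 and -0.13, where 4525 of all genes were negative, with a median of 0.00. With total counts these WT medians were -0.07 and -0.02, and that of all genes was 0.11. Slow fibre markers had a sum of 46.5 to 83.8 CPM in OE_4m and 291 to 981.6 in OE_24m, with 1 of 9 called higher. Their median log2 fold change was 4.40, and 1.24 in WT_24m against WT_4m, where 0 were called. Fast fibre markers were at 139300 to 150900 CPM in OE_4m and 119500 to 142600 in OE_24m, with 1 of 12 called lower. The part of fibre types in the values of the 36 genes was not tested. Libraries did not overlap for 6 genes that were lower (Pgk1, Gpd2, Pygm, Pgm2, Phkb and Phkg1, 16.7% against 5.24% of all genes) and 2 that were higher (Pfkl and Ldhb, 5.6% against 5.09%). Pygm was at 5958, 5780 and 6878 CPM in OE_4m and 4853, 4734, 4282 and 5539 in OE_24m (-0.35, SE 0.12, adjusted p = 0.203). For the difference between genotypes in the effect of age, no gene passed by edgeR or DESeq2 (0.0% of all genes), and 3 (Ldhb, Pgm2 and Ppp1r3a, 8.3%) were below 0.05 unadjusted against 5.45% of all genes.

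**Figure D4:**
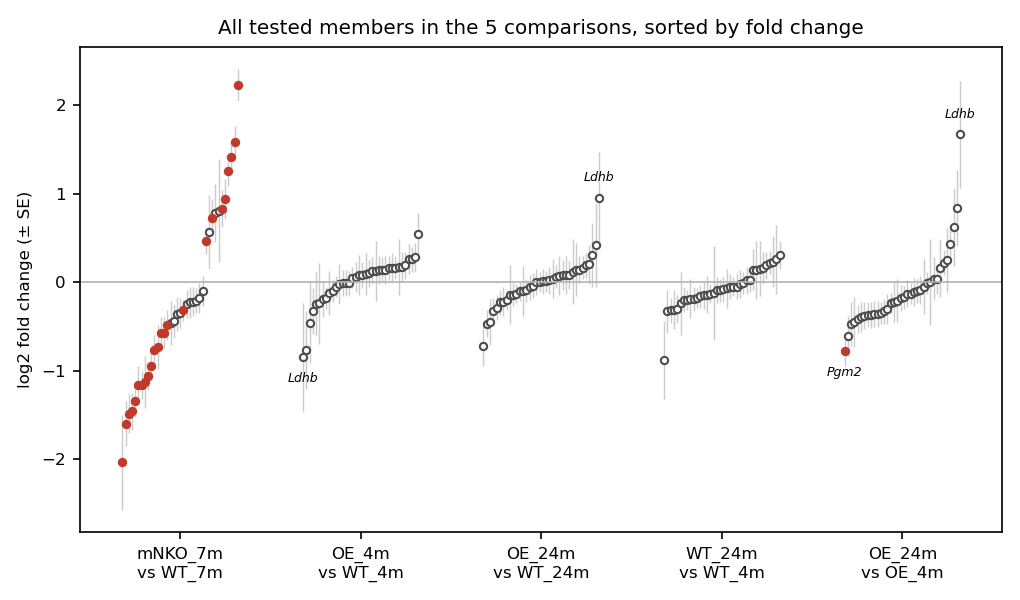
Log2 fold change of every tested gene of the set (37 at 7 months, 36 in the others), sorted within each of 5 comparisons, with bars of 1 SE and filled red points for an adjusted p below 0.05. Values of mNKO spread from -2.04 to 2.23, while in the other comparisons most lie near 0 and the only filled point is Pgm2 in OE_24m against OE_4m.

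Ldhb had the highest log2 fold change of the set in OE_24m against OE_4m. It was at 41.9, 24.8 and 59.0 CPM in OE_4m and 145, 85.4, 104 and 188 in OE_24m, without overlap, and the difference of 1.67 (SE 0.61) had an adjusted p of 0.303. WT mice varied as widely, at 138, 22.2, 88.2 and 48.3 CPM in WT_4m and 118, 47.6, 68.5 and 39.1 in WT_24m. The summed slow fibre markers, given above for the MCK-NamptOE mice, were at 51.0 to 135.4 in WT_4m and 47.8 to 348.9 in WT_24m. Over the 15 libraries the log2 levels of Ldhb and of these markers went together, with Pearson r = 0.80 (permutation p = 0.00032, adjusted p = 0.00064) and Spearman rho = 0.80 (permutation p = 0.00076, adjusted p = 0.00152). Without the 2 libraries farthest from the median of the markers r was 0.74 (13 libraries). For the deviations from group means r was 0.66, which was not tested. The permutations ignored the groups, so the permutation p-values include the differences between groups. Ldhb and the markers were both higher in OE_24m than in OE_4m, so these p-values give no separate support. Ldha showed r = -0.39 (permutation p = 0.140) and rho = -0.44 (permutation p = 0.101). The 2 relations were adjusted together.

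**Figure D5:**
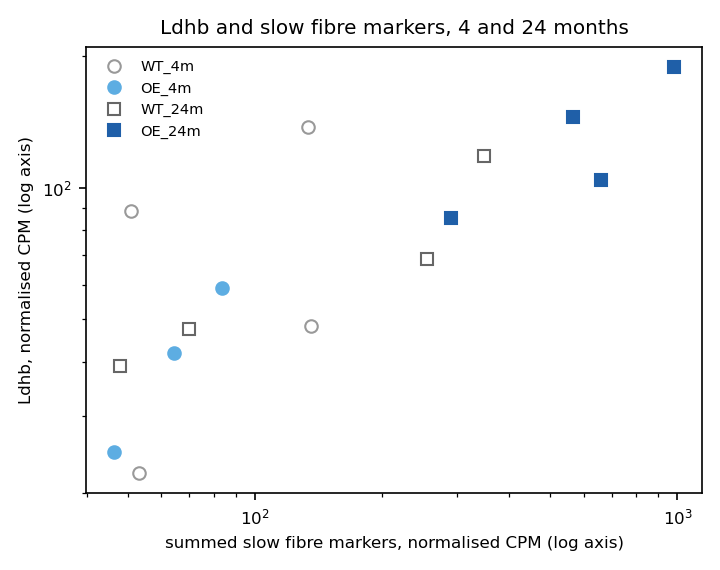
Level of Ldhb against the summed level of 10 slow fibre markers in the 15 libraries of 4 and 24 months (both normalised CPM, log axes), 1 symbol per library. The 4 OE_24m libraries, at 291 CPM of the markers or more, hold 85.4 CPM of Ldhb or more, while the 3 OE_4m libraries are at 59.0 CPM or less.

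For the isoform ratios at 4 and 24 months, among the 36 tests outside mNKO, 4 had the smallest possible p (exact p = 0.0286, adjusted p = 0.107). Hk2 over Hk1 was higher in WT_24m than in WT_4m by 1.29. In OE_24m against OE_4m, Pfkm over Pfkl (-1.13), Pfkm over Pfkp (-0.89) and Ldha over Ldhb (-2.02) were lower. The Hk1, Pfkl and Pfkp values there rest on 18 to 48 reads per group. Those of Ldhb rest on 307 to 1261 reads per group. Eno3 over Eno1, with 263 to 330 reads of Eno1 per group, had means of 5.71 to 5.87 in the 4 groups. Its differences were at most 0.13 in size.

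The 37 genes took 3.77 ± 0.31% of the counts on genes in WT_4m (SD, n = 4), 4.02 ± 0.50% in OE_4m (n = 3), 3.75 ± 0.23% in WT_24m (n = 4) and 3.37 ± 0.20% in OE_24m (n = 4). The ranges of MCK-NamptOE and WT mice overlapped at both ages. In the authors' deposited tables, 9 of the 37 genes were higher and 18 lower in mNKO at an adjusted p below 0.05. The authors' deposited table for OE_24m against OE_4m had Ldhb higher and Pgm2 and Pygm lower at that threshold. In their 3 other tables none of the members listed passed it.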

How the data were processed

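Reads of polyadenylated RNA were trimmed with cutadapt 1.4.2, aligned to mm10 with TopHat2 and counted per gene with HTSeq, per the submitters' processing notes. The deposited count files hold whole reads per gene, with 14900674 to 22755930 on genes per library at 7 months and 2032544 to 3443762 at 4 and 24 months. Lines of the files that name no gene held 21.5 to 33.5% of the reads at 7 months and 33.6 to 40.0% at the other ages, and were left out. The authors also deposited tables of their DESeq2 comparisons, which give a mean of normalised counts (a signal), a log2 fold change, its standard error and test statistic (each a score), and p-values with adjusted p-values, per the file headers.

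Counts were tested with edgeR 4.0.16 in R 4.3.3 (TMM scaling, filterByExpr, quasi-likelihood F test with Benjamini-Hochberg adjustment over all genes tested, called below 0.05). The 8 libraries of 7 months, extracted with another kit per the labels, were fitted apart from the 15 others, which shared 1 fit with a mean per group. Standard errors are the log2 fold change divided by the square root of F. Isoform ratios are log2 ratios of counts with a pseudocount of 0.5, tested with an exact two-sided permutation test, and the correlations used 100000 resamples. Gene names are those of the deposited tables, and positions and lengths come from GENCODE M21 (GRCm38). A length is that of all annotated exons of the gene joined. Promoter windows are RefSeq's on GRCm38.p6, and that of Pfkfb3, the gene with the largest fall, is not printed since it runs into an annotated exon.

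The members, isoform pairs and gene lists were chosen with earlier results of these data known. Both genes of an isoform pair, and members called without overlap of the groups, are given library by library, and up to 2 genes per pathway list are named by smallest p, of which 2 genes are not reported here. Alternatives were total-count and DESeq2 scaling, other filters on low counts, DESeq2 1.42.0, fits of only the groups compared, leaving out each library, and a pseudocount of 5 for the isoform ratios. The edgeR script was tested on simulated counts.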

Additional observations from a re-analysis of the deposited data

Results flagged for a closer look

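In 13 of 221 gene and group combinations with 4 libraries, 1 library lay apart from the other 3, with a gap to its nearest neighbour that is above Dixon's critical share of the group's whole range, which chance gives in about 1 of 20 groups. At 7 months, mNKO replicate 4 was low for Gyg (165.5 CPM against 235.7 for the next, ratio 0.892) and for Ppp1r3a (70.4 against 158 CPM, 0.877). WT_7m replicate 4 was high for Ppp1r3c (968.2 against 590.4 CPM, 0.848), WT_7m replicate 2 low for Pfkfb4 (30.2 against 43.7 CPM, 0.973), and WT_7m replicate 3 high for the log2 ratio of Phka1 to Phka2 (8.33 against 7.42, 0.83). Leaving out any of these libraries ended no call of Gyg, Ppp1r3a or Ppp1r3c.

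In WT_4m, replicate 4 was low for Gpi1 (961 against 1107 CPM, 0.917), Pfkm (1627 against 2238 CPM, 0.866) and Phkg1 (209.6 against 257 CPM, 0.833). WT_4m replicate 1 was low for Aldoa (7032 against 7469 CPM, 0.924) and Pygm (5733 against 6054 CPM, 0.947), and WT_4m replicate 3 was high for Pgk1 (644.4 against 443.2 CPM, 0.888) and low for Ugp2 (756.8 against 920.9 CPM, 0.918). WT_24m replicate 4 was high for Eno1 (32.6 against 25.5 CPM, 0.92). Of the 13, 7 were in WT_4m.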

How the results depend on the processing

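Total-count scaling changed the most at 7 months: 13 members rose and 9 fell in mNKO, and 7 of the 16 lower calls were lost, among them Pfkm (0.04) and Gys1 (0.21), which also changed sign. DESeq2 and its size factors kept the calls of the 24 members at 7 months and of Pgm2 in OE_24m against OE_4m. Members took 98.0% of the WT share of counts in mNKO, 90.3% without mitochondrial counts and 107.3% over all lines of the files. With each library left out in turn, 7 to 9 members rose and 13 to 16 fell. At 4 and 24 months, with no filter on low counts, Ldhb was called in OE_4m against WT_4m (1 lower), in OE_24m against WT_24m (1 higher, and Pfkfb3, 1 lower), in OE_24m against OE_4m (1 higher, and 2 lower, Pgam2 and Pgm2) and in the difference between the effects of age (1 higher). Fitting only the 2 groups of OE_24m against OE_4m gave Ldhb as 1 higher and 0 lower, and DESeq2 gave 2 lower, Pgm2 and Pygm. Leaving out 1 library gave 0 to 1 lower in OE_24m against WT_24m (Pfkfb3, without OE_24m replicate 1) and 0 to 1 in OE_24m against OE_4m. The cause of these differences was not tested. No paired analysis was possible because the animal numbers in the titles are not shared between groups. Depth at 4 and 24 months limits Hk1, Pfkl, Pfkp and Aldoc.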

Other observations

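Ratios between members of different steps, chosen after the data were seen and not tested, are free of library scaling. The log2 count ratio of Pygm to Aldoa was -0.80 to -0.32 in WT_7m and -1.21 to -0.99 in mNKO, so that the phosphorylase was lower relative to aldolase in every mNKO library. The kinase subunits showed the same order. Phkb to Aldoa was -5.43 to -4.85 in WT_7m and -6.86 to -5.78 in mNKO, and Phka1 to Aldoa was -4.62 to -3.90 and -5.56 to -4.79.

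The transcripts of Ppp1r3a and Stbd1, whose proteins attach to glycogen, went in opposite directions relative to that of glycogen synthase in mNKO. Ppp1r3a to Gys1 was -0.19 to 0.00 in WT_7m and -2.31 to -1.03 in mNKO, while Stbd1 to Gys1 was -3.65 to -3.07 and -2.90 to -1.48. In OE_24m the log2 ratio of Ppp1r3a to Gys1 was -0.26 to 0.76, against 0.70 to 1.07 in WT_24m, and these ranges overlapped.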
